A study of Mus musculus with 3 samples.

Results

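Mitosis and G2/M genes, a set of 57 genes that act from the end of DNA replication to the separation of the daughter cells, were followed in activated regulatory T cells. They were chosen by name as the listed cyclins, mitotic kinases, checkpoint, kinetochore, kinesin, spindle, chromosome and transcription factor genes, and all 57 were found by their symbols among the 55536 mouse genes of the gene table. PolyA-selected RNA was sequenced in 3 libraries, which the labels number as technical replicates 1, 2 and 3 of 1 biological replicate. The cells were primary activated regulatory T cells, CD4 T cells that restrain immune responses, from an adult male mouse aged 4 months that carried Foxp3CreERT2, an inducible Cre recombinase expressed from Foxp3, and the reporter allele Rosa26YFP. The labels trace them to haematopoietic cells of the bone marrow, and all 3 libraries share this genotype and state. There is 1 group and no resting or untreated control, so the levels and how far the libraries differ are described, and no condition is set against another. In bulk RNA, fewer cells in mitosis and less RNA per mitotic cell cannot be told apart.

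A cell enters mitosis when cyclin B binds and activates the kinase Cdk1, which Cdc25 phosphatases switch on. Chromosomes are then condensed, captured by spindle microtubules at the kinetochore, and held under the spindle checkpoint until the anaphase-promoting complex destroys securin and the cyclins. Most genes of this programme are transcribed late in the cycle, and T cells leave quiescence and take it up when they are activated. Their promoters are known for the cell cycle genes homology region (CHR), which the DREAM and MuvB complexes bind, and for CCAAT boxes, which NF-Y binds. Foxm1 and Mybl2, themselves members, are transcription factors that work with MuvB late in the cycle.

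Promoters of 6 members are shown because they carry, or in 1 case lack, the letters that set the members' promoters apart. The sequences are from RefSeq on GRCm38.p6, run 5′ to 3′ on the strand of the gene from 170 bases before the annotated start to 30 bases after it, 200 bases in all, and capitals mark CHR or CCAAT letters on either strand. The windows lie at chr10:69352883-69353082 (minus strand) for Cdk1, chr13:100786457-100786656 (minus) for Ccnb1, chr9:70421525-70421724 (minus) for Ccnb2, chr4:118437314-118437513 (minus) for Cdc20, chr11:99024160-99024359 (minus) for Top2a and chr2:163054465-163054664 (plus) for Mybl2.
Cdk1: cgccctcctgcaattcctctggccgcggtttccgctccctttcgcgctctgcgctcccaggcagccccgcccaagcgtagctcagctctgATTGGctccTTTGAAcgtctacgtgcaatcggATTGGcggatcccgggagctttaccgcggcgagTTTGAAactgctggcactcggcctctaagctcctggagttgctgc
Ccnb1: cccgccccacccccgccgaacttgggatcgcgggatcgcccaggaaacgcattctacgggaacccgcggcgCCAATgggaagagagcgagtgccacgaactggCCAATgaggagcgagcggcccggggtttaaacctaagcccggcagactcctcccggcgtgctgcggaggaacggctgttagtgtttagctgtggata
Ccnb2: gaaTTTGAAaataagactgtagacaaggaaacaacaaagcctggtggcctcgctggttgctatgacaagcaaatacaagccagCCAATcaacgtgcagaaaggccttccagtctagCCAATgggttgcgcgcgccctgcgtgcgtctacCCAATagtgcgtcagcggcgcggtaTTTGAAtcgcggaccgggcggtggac
Cdc20: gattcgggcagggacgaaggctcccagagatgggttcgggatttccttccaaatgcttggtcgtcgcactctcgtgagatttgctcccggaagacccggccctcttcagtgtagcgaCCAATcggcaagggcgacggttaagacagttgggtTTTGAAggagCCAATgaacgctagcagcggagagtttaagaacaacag
Top2a: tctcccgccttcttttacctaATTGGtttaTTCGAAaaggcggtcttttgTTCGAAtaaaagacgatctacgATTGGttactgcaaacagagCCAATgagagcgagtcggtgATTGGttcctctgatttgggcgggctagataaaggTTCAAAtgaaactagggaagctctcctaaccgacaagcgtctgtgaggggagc
Mybl2: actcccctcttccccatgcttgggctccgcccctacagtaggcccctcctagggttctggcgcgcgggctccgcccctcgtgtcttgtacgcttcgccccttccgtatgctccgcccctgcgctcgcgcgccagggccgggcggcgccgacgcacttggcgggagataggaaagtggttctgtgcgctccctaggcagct

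Of the letters marked, the Cdk1 window holds CHR and CCAAT in alternation, the Ccnb1 window holds CCAAT alone, and the Mybl2 window holds neither. CHR was searched only as TTTGAA or TTCGAA, so a variant of it would be missed. Over the 300 bases from 250 before to 50 after the start, 52 promoters of 48 members were in the table. CHR letters (TTTGAA or TTCGAA) stood in 40 of these 52 member promoters, 76.92%, against 17.62% of 21263 promoters of protein-coding genes and 19.23% of all 32851. CCAAT stood in 78.85% of member promoters, against 38.19% of protein-coding promoters. CCAAT at 2 or more places was found in 53.85% of member promoters and in 12.81% of protein-coding promoters, and both CHR and CCAAT in 69.23% and 7.11%. A pair of CCAAT places whose starts lie 30 to 35 bases apart, a spacing chosen after the values were seen, was present in 9 member promoters (17.31%) and in 1.98% of protein-coding promoters. Letters of an E2F site (TTTGGCGC or TTTCGCGC) stood in 2 member promoters, those of Cdk1 and Ncapd2, or 3.85%, against 1.05% of protein-coding promoters. All motifs were searched on both strands, none is contained in another although neighbouring matches can share end letters, and a match is a description of the sequence and not a bound site.

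The place of the letters also differed. Places were counted per promoter, so a site shared by overlapping promoters of 1 gene counts again, and the 56 CHR and 99 CCAAT places are 52 and 92 separate sites. Of the 56 CHR places in the member promoters, 37 (66.07%) lay within 50 bases of the start, against 22.41% of the CHR places in protein-coding promoters. Of 99 CCAAT places, 64 (64.65%) lay 10 to 130 bases before the start, against 54.74%. By gene, 33 members held both kinds of letters. Anln, Kif20b, Kif2c and Ndc80 held CHR without CCAAT, and Ccnb1, Cenpe, Cks2 and Gtse1 held CCAAT without the CHR letters searched. The 7 members with neither were Birc5, Mad2l1, Mybl2, Nuf2, Nusap1, Pttg1 and Tacc3. Kif20a, Ccna2, Incenp, Stmn1, Cdc25c, Tpx2, Aurkb, Smc4 and Foxm1 had no entry in the promoter table.

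**Figure D1:**
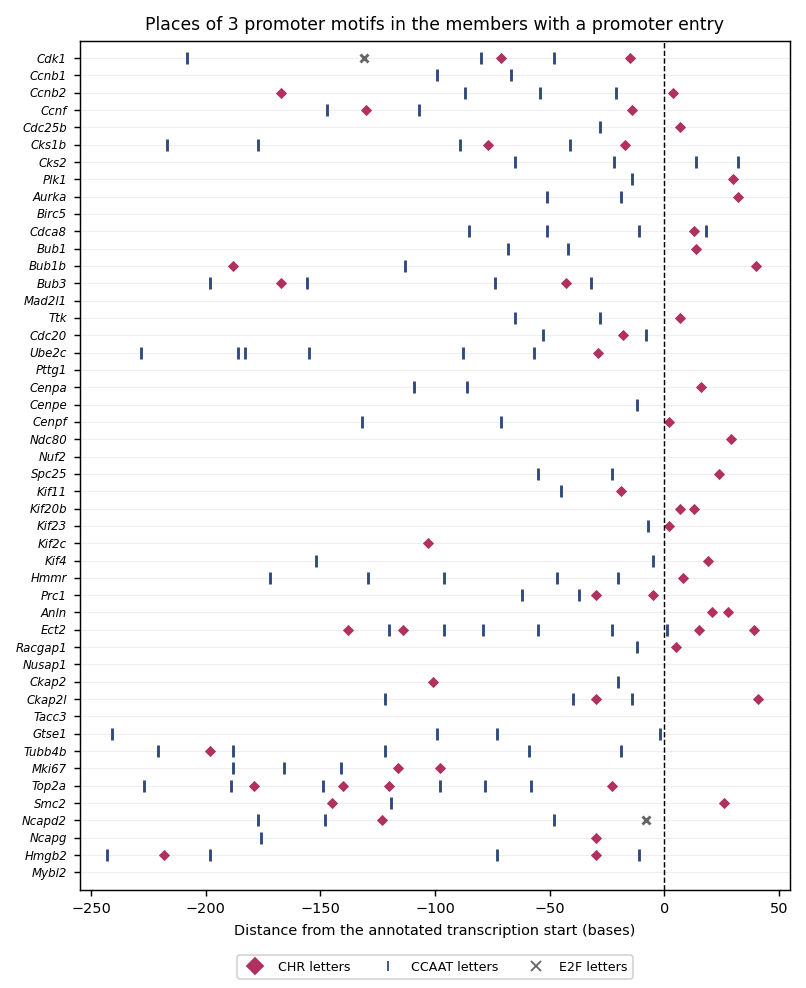
Places of CHR, CCAAT and E2F letters against the annotated transcription start (x axis, bases, negative before the start) in the 48 members with a promoter entry, 1 row per gene, with all promoters of a gene on its row. The CHR marks gather around the start, where 37 of 56 counted per promoter lie within 50 bases of it, and the CCAAT marks lie mostly before it.

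The 3 libraries held 10981924, 9700630 and 6667391 expected counts over genes in replicates 1, 2 and 3. Regulatory T cell markers were all detected (10 of 10), with summed levels of 8057, 8001 and 5656 TPM (transcript abundance per length and library). By counts scaled to library size, 8 of the 10 were lowest in replicate 3. Foxp3, with 29.49, 28.72 and 49.75 TPM, and Ctla4 were instead highest in replicate 3. Of the marker lists for other cells, B cell markers (5 of 8 detected) summed to 114.1, 79.2 and 95.37 TPM, germinal centre B cell markers (1 of 6) to 12.62, 9.95 and 3.86 TPM, and myeloid markers (2 of 7) to 22.18, 5.96 and 22.99 TPM. Plasma cell markers (4 of 7) summed to 199.1, 12.78 and 886.7 TPM and erythroid markers (2 of 7) to 799.3, 5.5 and 23.38 TPM. Erythroid genes were thus highest in replicate 1, mostly through globins, while Klf1, an erythroid transcription factor, had 0.83, 0.2 and 0 TPM. Immature thymocyte markers had none of 4 detected, with Rag1 and Rag2 at 0 in all 3 libraries. The part of these cell types in the levels below was not tested.

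All 57 members were detected, with a TPM of at least 1 in each library, where 45.3% of the 22028 protein-coding genes were. Mean levels ran from 3.86 TPM for Anln to 451.7 TPM for Hmgb2, a range of 117-fold. A mean of at least 100 TPM was reached by 9 members, 40 lay between 10 and 100 TPM, and 8 lay below 10 TPM. The fewest counts behind any value were 75 (Mybl2 in replicate 1) and the most 6185 (Smc4 in replicate 1), so none rests on a handful of reads. The summed member level was 2905, 3565 and 3437 TPM, and the median rank of a member among all genes was 4293. The median of log2(TPM + 1) over members was 4.70, 4.94 and 5.06, or 4.90 ± 0.18 (SD, n = 3), against 2.60 ± 0.06 over the 16781 protein-coding genes above 0 in any library.

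**Figure D2:**
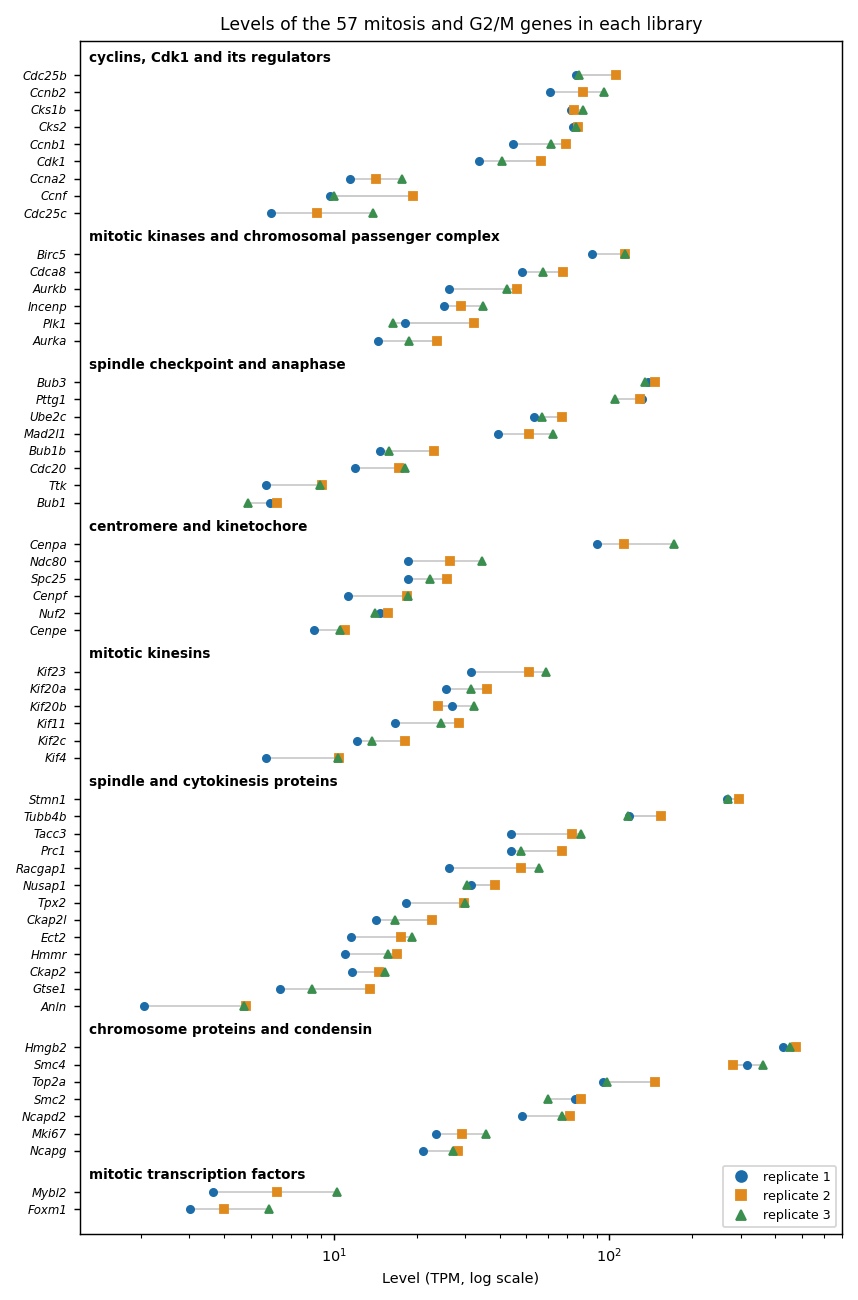
Level of each of the 57 members (TPM, log axis) in replicates 1, 2 and 3, grouped by function and ordered by mean level within each group. Chromosome proteins and Stmn1 reach the right of the plot, up to 451.7 TPM for Hmgb2, and Mybl2, Foxm1 and Anln lie at its left, from 2.05 TPM for Anln in replicate 1.

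The cyclins, Cdk1 and its regulators were all detected, and the median over the 9 was 5.88 ± 0.32 on the log2(TPM + 1) scale (SD, n = 3). Cdk1, the kinase that starts mitosis, had 33.69, 56.61 and 40.91 TPM in replicates 1, 2 and 3. Its B-type partners stood above it, with Ccnb1 at 44.75, 69.77 and 61.48 TPM and Ccnb2 at 60.97, 80.4 and 95.83 TPM. In each library Ccnb2 was above Ccnb1 and Ccnb1 above Cdk1, but in M4 counts per coding base, on the scale of TPM, Cdk1 (70.2 ± 14.7) stood above Ccnb1 (56.5 ± 9.31) and below Ccnb2 (135.8 ± 31.9). Ccna2, the S and G2 cyclin, was lower at a mean of 14.5 ± 3.14 TPM, and Ccnf, a cyclin that forms a ubiquitin ligase, averaged 13.07 ± 5.55 TPM. Of the exon bases of Ccna2, 12.5% are also exonic in Exosc9 on the opposite strand (38.41 TPM), and since no source used here states whether the libraries keep strand, reads from those bases cannot be told apart.

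The small Cdk-binding subunits Cks1b and Cks2 were the steadiest of this group. Cks1b had 72.43, 74.67 and 80.48 TPM and Cks2 had 74.03, 77.06 and 76.02 TPM. Their means of 75.9 ± 4.16 and 75.7 ± 1.54 TPM do not differ beyond the spread between libraries, although the M4 counts per coding base were 123.8 ± 11.9 and 83.9 ± 3.44. Of the phosphatases that activate Cdk1, Cdc25b had the highest mean TPM of the group, with 75.5, 105.6 and 77.36 TPM. However, Ccnb2 and Cks1b were above it in replicate 3, in coding transcripts alone and in M4 counts. Cks2 was also above it in coding transcripts alone. Cdc25c had the lowest mean, with 5.91, 8.68 and 13.94 TPM, though Ccnf was below it in replicate 3 and in the mean of the estimated counts table. The libraries of these phosphatases do not overlap, and the mean of Cdc25b was 86.2 ± 16.9 TPM against 9.51 ± 4.08 TPM for Cdc25c.

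Mitotic kinases and the chromosomal passenger complex, which corrects faulty attachments at the centromere, had a median of 5.12 ± 0.33. Plk1, the polo kinase that acts from entry to exit, had 18.16, 32.44 and 16.43 TPM, so replicate 2 stood apart from the other two. Aurka, the centrosomal kinase, had the lowest mean, with 14.47, 23.68 and 18.79 TPM, above Plk1 in replicate 3 and above Incenp in M4 counts. Within the passenger complex, Birc5 (survivin) was the highest with 86.33, 113.6 and 114 TPM. Cdca8, which binds it, had 48.21, 67.99 and 57.59 TPM. The kinase Aurkb had 26.26, 46.42 and 42.62 TPM. Incenp, the scaffold that activates Aurkb, had 25.06, 28.89 and 34.93 TPM. Birc5 exceeded Cdca8, and Cdca8 exceeded Aurkb and Incenp, in every library. Aurkb was also above Incenp in each library, though only by 26.26 to 25.06 TPM in replicate 1, and their ranges over libraries overlapped.

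The spindle checkpoint and anaphase genes had a median of 4.96 ± 0.26 and split into high and low members. Bub3, a checkpoint protein that also serves in interphase, was the highest with 138.2, 146 and 134.4 TPM. Its kinase partner Bub1 had the lowest mean of the group, with 5.88, 6.23 and 4.91 TPM. The checkpoint kinase Ttk, below Bub1 in replicate 1 at 5.71 TPM, averaged 7.91 ± 1.91 TPM, Bub1b 18.0 ± 4.59 TPM and Mad2l1 51.0 ± 11.4 TPM. Pttg1 (securin, which holds separase inactive) averaged 122.0 ± 14.9 TPM and Ube2c, the ubiquitin-conjugating enzyme of the anaphase-promoting complex, 59.2 ± 7.21 TPM. Cdc20, which activates that complex, had 12, 17.22 and 18.16 TPM, and 2.84% of its exon bases are exonic in Elovl1 on the opposite strand (100.3 TPM).

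Centromere and kinetochore genes had a median of 4.35 ± 0.20. Cenpa, the histone H3 variant that marks the centromere, was the highest with 90.21, 113 and 171.7 TPM. Cenpe, a kinetochore motor, was the lowest with 8.5, 11.03 and 10.54 TPM, and Cenpf averaged 16.1 ± 4.14 TPM, but in M4 counts Cenpf (10.7) was below Cenpe (16.5). Of the Ndc80 complex, which grips microtubules, Ndc80 had 18.61, 26.45 and 34.58 TPM. Its dimer partner Nuf2 had 14.69, 15.72 and 14.14 TPM, and Spc25, of the other end of the complex, had 18.6, 25.7 and 22.44 TPM. Nuf2 was below Ndc80 and Spc25 in each library. Ndc80 was above Spc25 in each as well, by as little as 18.61 to 18.6 TPM in replicate 1, and their ranges overlapped.

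Mitotic kinesins, the motors of the spindle, had a median of 4.68 ± 0.22. Kif23, the motor of the central spindle, was the highest by TPM over all transcripts, with 31.46, 51.17 and 58.88 TPM. In coding transcripts alone Kif20a (29.9 TPM) stood above Kif23 (20.1 TPM), as it did in M4 counts per coding base (56.2 against 34.2). Kif4, a chromosome-bound kinesin, was the lowest with 5.69, 10.46 and 10.34 TPM, and 15.1% of its exon bases are exonic in Pdzd11 on the opposite strand (46.89 TPM). Between them lay Kif20a at 31.0 ± 5.26, Kif20b at 27.8 ± 4.31, Kif11 at 23.2 ± 5.995 and Kif2c at 14.7 ± 3.16 TPM. Kif20a shares 29.3% of its exon bases with Cdc23 on the opposite strand (52.42 TPM). For Kif4 and Kif20a, as for Ccna2 and Cdc20, the overlapping gene had the higher mean level, and these were the 4 members of which that held.

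The 13 spindle and cytokinesis proteins had a median of 4.72 ± 0.39 and the widest span of levels. Stmn1 (stathmin, which destabilises microtubules) was the highest with 267.3, 296.2 and 270.4 TPM, and Tubb4b, a beta-tubulin, averaged 129.3 ± 20.9 TPM. At the other end, Anln (anillin, a scaffold of the contractile ring) had 2.05, 4.8 and 4.73 TPM. Racgap1, the GTPase-activating partner of Kif23 at the central spindle, had 26.12, 47.85 and 55.79 TPM. Both Racgap1 and Kif23 were lowest in replicate 1 and highest in replicate 3, an order shared by other members such as Ccnb2, Tacc3 and Mki67. Tacc3 averaged 65.4 ± 18.7 TPM, Prc1, the bundler of central spindle microtubules, 53.0 ± 12.4, Nusap1 33.5 ± 4.39 and Tpx2, an activator of Aurka, 26.0 ± 6.70 TPM. Ckap2l, Ect2, Hmmr, Ckap2 and Gtse1 averaged 17.9, 16.2, 14.6, 13.9 and 9.41 TPM.

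Chromosome proteins and condensin had the highest median of any group by TPM over all transcripts, 6.22 ± 0.11. The cyclin group stood above it in M4 counts per coding base (6.11 against 5.76) and in coding transcripts alone (5.79 against 5.18). Hmgb2, a DNA-bending chromatin protein, had 427.1, 474.7 and 453.3 TPM. Top2a, the topoisomerase that disentangles sister DNA, had 94.81, 146.3 and 97.95 TPM. Mki67, the source of the Ki-67 proliferation antigen that coats mitotic chromosomes, had 23.56, 29.29 and 35.59 TPM. Mki67 was below Top2a in every library.

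The condensin subunits among the members did not stand at 1 level. Smc4 had 314.7, 281.7 and 360.9 TPM. Its ATPase partner Smc2 had 74.85, 78.62 and 59.87 TPM. Ncapd2 had 48.14, 72.24 and 67.59 TPM, and Ncapg was the lowest of the group with 21.19, 28.37 and 27.09 TPM. The mean of Smc4 was 319.1 ± 39.8 TPM, against 71.1 ± 9.92 TPM for Smc2. In transcripts annotated as protein-coding alone, the gap was smaller, with 81.5 TPM for Smc4, 34.6 for Smc2, 28.1 for Ncapd2 and 22.0 for Ncapg. The M4 counts per coding base gave 320.0 ± 31.2 for Smc4 and 45.6 ± 2.43 for Smc2. The order of the subunits thus held in the first of these measures, whereas in the M4 counts Ncapd2 (52.5 ± 10.2) stood above Smc2.

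The transcription factors were low, with a median of 2.61 ± 0.51. Mybl2 (B-Myb) had 3.67, 6.26 and 10.3 TPM. Foxm1 had 3.02, 4 and 5.85 TPM, the lower of the pair in every library. Both were lowest in replicate 1 and highest in replicate 3.

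In the order of all members, Hmgb2 stood above every other member in each library. Smc4 and Stmn1 came next by mean TPM over all transcripts, and their libraries overlap. In M4 counts Bub3 (293.5) stood above Stmn1 (192.0). In coding transcripts alone Smc4 (81.5 TPM) stood behind Stmn1, Tubb4b, Bub3, Pttg1 (120.6 TPM) and Birc5 (104.6 TPM). Bub3, Tubb4b, Cenpa, Pttg1, Top2a and Birc5 followed with means between 104.6 and 139.5 TPM, and each of these overlaps its neighbour in the order. The other quantification of the same reads, from the estimated counts table, put members lower, at a median of 0.56 times the main TPM, as it did detected protein-coding genes (0.585 times). It ranked them alike, with a Spearman rho of 0.989 across the 57 members. The M4 counts per coding base gave a rho of 0.947. These are descriptions across genes of the same libraries.

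Most members were carried by 1 main transcript. In 46 of 57 the highest transcript held over 50% of the gene's TPM, and 51 had the same highest transcript in the estimated counts table. The median share of TPM in transcripts annotated as protein-coding was 88.6%, and 26 members had at least 90%. In 6 members the coding transcripts held under 50%. These were Smc4 (25.8% ± 7.09, SD, n = 3), Cenpa (30.6% ± 7.15), Kif23 (42.8% ± 3.25), Ncapd2 (44.7% ± 3.35), Mad2l1 (48.1% ± 11.3) and Smc2 (49.1% ± 5.87). In the estimated counts table Cdc25c was also under 50% (40.6%), while Mad2l1 (60.5%) and Ncapd2 (53.6%) were above it.

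For 5 members the highest transcript was not annotated as protein-coding. It was a retained intron form in Mad2l1 (Mad2l1-203, 51.9% of the gene) and Prc1 (Prc1-214, 26.1%), a nonsense-mediated decay form in Smc4 (Smc4-207, 32.5%) and Cenpa (Cenpa-202, 38.8%), and a processed transcript in Smc2 (Smc2-203, 50.9%). The estimated counts table named a coding transcript as the highest for Mad2l1 and Prc1 and agreed on the others. It also named a noncoding one for Kif23 (Kif23-208, a retained intron form) and Cenpf (Cenpf-201, a nonsense-mediated decay form). Top2a was near the line, with 52.7%, 59.5% and 51.3% of its TPM in coding transcripts. Counted over coding transcripts alone, Smc4 stood at 81.5 TPM against 319.1 TPM over all its transcripts, and Cenpa at 40.2 TPM against 125.0 TPM. Among the 54 members with over 1 transcript, the coding share was lowest in replicate 3 for 26 and in replicate 2 for 12. The 16 counted for replicate 1 include ties. Birc5, Ube2c, Nusap1, Gtse1 and Mki67 had 100% in every library and so no lowest one. The same count over all genes was not made.

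**Figure D3:**
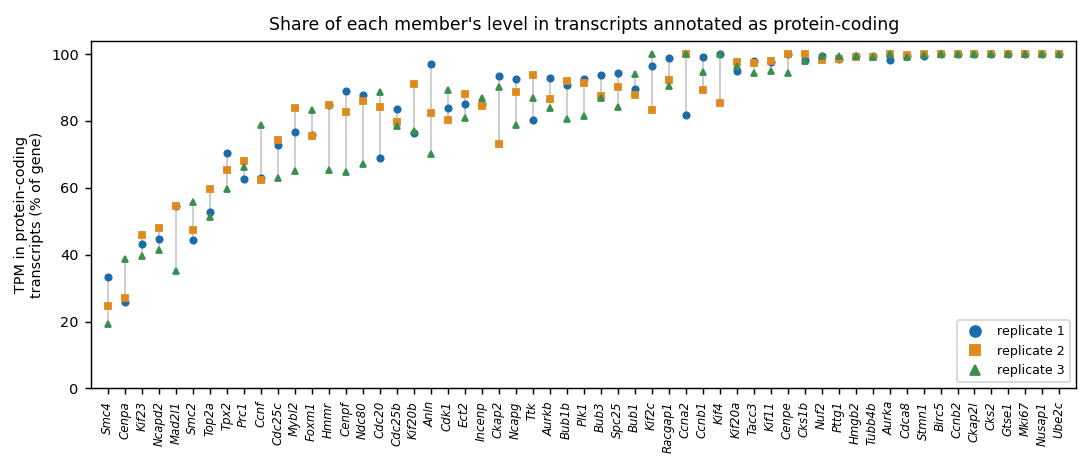
Percent of each member's TPM in transcripts annotated as protein-coding (y axis) for all 57 members, ordered by mean share, with a point for each of replicates 1, 2 and 3. At the left Smc4 averages 25.8% and Cenpa 30.6%, and 26 members at the right average 90% or more.

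Members differed between the libraries by more than read sampling gives, with a median ratio of a member's highest to its lowest library of 1.45, against 1.44 over all genes tested. By the chi-square test against sampling noise, with Benjamini-Hochberg adjustment over 12997 genes, 49 of 57 members (86.0%) varied, where 65.4% of all genes tested did, 74.1% of those with a mean count of at least 50 and 75.8% of those within the members' range of counts. All members passed the filter on low counts. The members that did not pass the test were Ckap2, Bub1, Ube2c, Cks1b, Nuf2, Kif20b, Stmn1 and Cks2. Between replicates 2 and 3 alone, without replicate 1, 31 members varied, near the 51.7% of all genes that did. Without replicate 2 it was 34 members, against 53.6% of all genes, and without replicate 3 it was 41 members, against 32.2%. Measured against the trended dispersion that edgeR estimated from all genes, 0 of 57 members varied after adjustment and 0 at an unadjusted p under 0.05, where 1.08% of all genes tested varied after adjustment and 5.09% at the unadjusted p. The differences under test are part of that dispersion.

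In 6 members the highest library exceeded the lowest by at least 2-fold. The share of all genes at this mark was not counted, and the median ratio was 1.45 over members and 1.44 over all genes tested. Mybl2, at chr2:163054687-163084688, had the widest range, with 7.02, 12.4 and 19.7 CPM (read counts scaled by library size after TMM). Its ratio of highest to lowest was 2.80, log2 1.49, with an adjusted p of 5.53e-12 in the chi-square test. Cdc25c, at chr18:34732993-34751533, had 8.70, 11.3 and 20.1 CPM, a ratio of 2.31. Foxm1, at chr6:128362967-128376146, had 8.23, 10.8 and 17.5 CPM, a ratio of 2.13. In these members replicate 1 was the lowest and replicate 3 the highest.

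The other members with a ratio of at least 2 did not share 1 order. Anln, at chr9:22332012-22389188, had 7.58, 16.0 and 14.9 CPM, so replicate 1 stood apart, with a ratio of 2.11. Racgap1, at chr15:99620496-99651656, had 56.5, 94.8 and 115.1 CPM, a ratio of 2.04. Plk1, at chr7:122159439-122169873, had 29.1, 47.1 and 22.7 CPM, a ratio of 2.08 between replicates 2 and 3. Top2a, at chr11:98992943-99024189, resembled Plk1, with 235.9, 367.6 and 227.1 CPM and a ratio of 1.62. In each of the 6, the exact 95% Poisson intervals of the highest and lowest library did not overlap. The unadjusted p under the dispersion lay between 0.060 and 0.220. The ratio was 1.71 to 2.16 in the estimated counts table and 1.82 to 3.46 in the M4 counts. The 6 were picked for their ratios in these counts, and the other tables describe the same libraries. The intervals and ratios are thus no separate evidence that these members vary.

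At the other end, 15 members differed by under 1.25-fold, a mark at which all genes were not counted either. Cks2 had 31.8, 30.7 and 31.4 CPM, a ratio of 1.04. Stmn1 had 195.4, 199.4 and 186.9 CPM, a ratio of 1.07. Hmgb2 had 407.3, 375.2 and 386.9 CPM, a ratio of 1.09, and still passed the chi-square test (adjusted p = 0.0023) on the strength of its 2675 to 4353 counts. Among the widest, Mybl2, Cdc25c, Foxm1 and Anln rest on 75 to 154 counts per library.

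**Figure D4:**
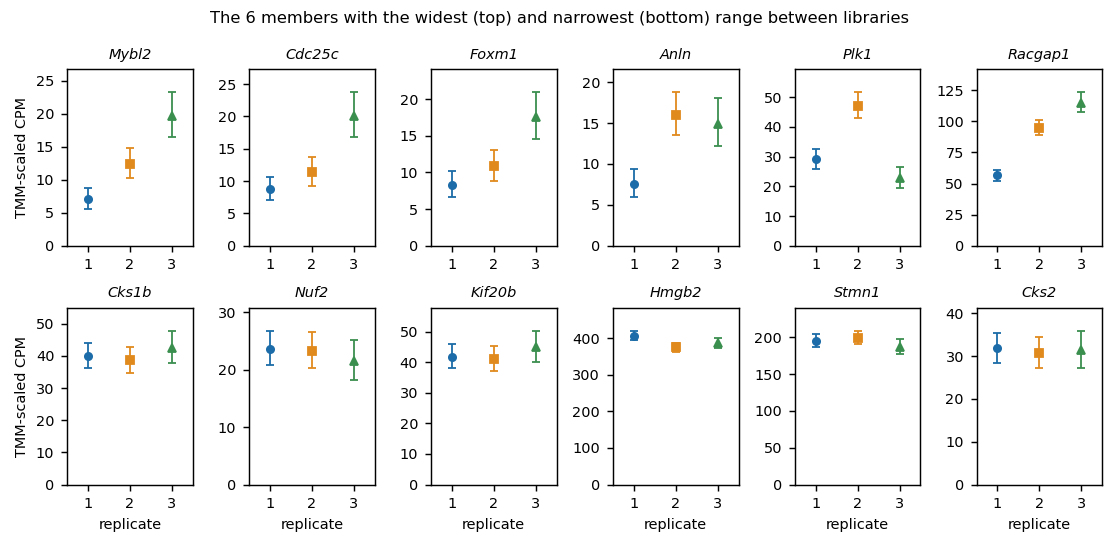
TMM-scaled CPM (y axis, from 0) of the 6 members with the widest range between libraries (top row) and the 6 with the narrowest (bottom row), in replicates 1, 2 and 3, with exact 95% Poisson intervals for counting error. Mybl2 reaches 19.7 CPM in replicate 3 against 7.02 CPM in replicate 1, while the intervals of Cks2 overlap in all 3 libraries.

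By the deviation of each library from the mean of the 3 on the log2 CPM scale, members were low in replicate 1. Their median deviation was -0.23, 0.12 and 0.05 in replicates 1, 2 and 3, against 0.03, 0.03 and -0.04 over all genes tested. Replicate 1 was the lowest of the 3 for 39 of 57 members (68.4%), where it was the lowest for 28.5% of all genes tested. Replicate 3 was the lowest for 12 members against 45.6% of all genes, and replicate 2 for 6 against 25.9%. Replicate 2 was the highest for 29 members (31.2% of all genes), replicate 3 for 20 (35.3%) and replicate 1 for 8 (33.4%). With 3 libraries of 1 group no test of this difference was made. The erythroid markers (2 of 7 detected) also set replicate 1 apart, with a summed 799.3 TPM there against 5.5 and 23.38 TPM in replicates 2 and 3. Their part in the deviation was not tested.

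The deviation was not equal across functions. In replicate 1 the median was -0.63 for the transcription factors, which are only Foxm1 and Mybl2, both among the members with the widest ratios. It was -0.29 for the kinesins, -0.28 for the cyclins and regulators and -0.26 for the spindle and cytokinesis proteins. It was -0.25 for the kinases, -0.24 for the kinetochore genes, -0.18 for the chromosome proteins and -0.11 for the checkpoint and anaphase genes. The members highest in replicate 1 were Bub1, Bub3, Pttg1, Nuf2, Cks2, Smc2, Smc4 and Hmgb2. Of these Pttg1, picked after its values were seen, had the widest range, 67.7, 57.3 and 49.0 CPM (ratio 1.38, adjusted p = 8.26e-06 in the chi-square test). Within complexes, libraries moved unequally, as Ndc80 had 33.2, 42.5 and 54.2 CPM while Nuf2 had 23.6, 23.2 and 21.4 CPM.

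**Figure D5:**
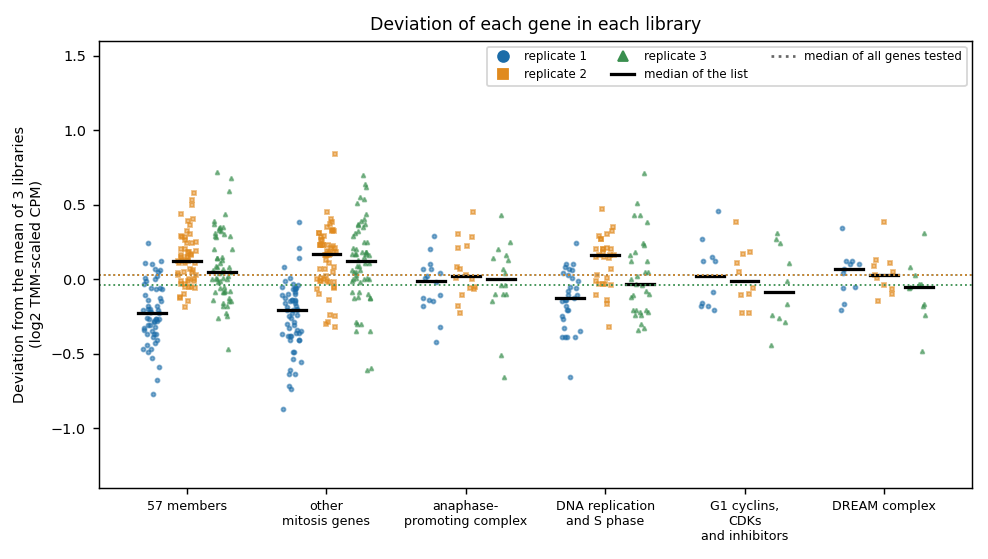
Deviation of each gene from its mean over the 3 libraries (y axis, log2 of TMM-scaled CPM) in replicates 1, 2 and 3, for the 57 members and 5 other cell cycle lists, with bars at list medians and dotted lines at the medians of all genes tested. In replicate 1 the bars of the members (-0.23) and of the other mitosis genes (-0.21) lie below the dotted line (0.03). The bar of the anaphase-promoting complex (-0.01) lies just below it, and that of DREAM (0.07) lies above it.

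Other genes of the pathway gave the frame. Of 60 further mitosis genes, all were detected and 46 (76.7%) varied by the chi-square test, where 65.4% of all genes did. Their levels were lower than those of the members, with a median log2(TPM + 1) of 3.63 ± 0.27, from Pmf1, a kinetochore protein, at 50.02, 70.23 and 88.07 TPM and Cdca3, a ubiquitin ligase adaptor, at 45.28, 68.62 and 85.63 TPM down to Iqgap3 at 1.12, 3.38 and 1.24 TPM. They shared the members' low replicate 1, with median deviations of -0.21, 0.17 and 0.12 and replicate 1 the lowest for 43 of 60.

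The 16 genes of the anaphase-promoting complex, most of which cells hold through the cycle, were all detected, with a median of 5.52 ± 0.15, and 9 (56.2%) varied, below the share of all genes. Anapc5 (72.84, 134.1 and 126.2 TPM) and Anapc16 (70.37, 91.33 and 145.1 TPM) were the highest, and Cdc27 (14.33, 16.93 and 16.15 TPM) the lowest. Their median deviations were -0.01, 0.02 and 0.00. The DREAM genes, 11 of 11 detected and 7 (63.6%) varying, near the share of all genes, likewise stood near 0 with 0.07, 0.03 and -0.05. Rbbp4 (242.3, 245.2 and 244.2 TPM), a histone-binding subunit, and Rbl2 (112.3, 145 and 92.1 TPM), a pocket protein of quiescent cells, were the highest of these, and E2f5 (2.09, 2.59 and 2.21 TPM) the lowest.

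DNA replication and S phase genes were all detected, 31 of 31, with a median of 5.25 ± 0.20, and 28 (90.3%) varied. Pcna, the replication clamp, had 155.9, 158.9 and 148.7 TPM and Rrm2, a subunit of ribonucleotide reductase, had 136.5, 195.9 and 122.8 TPM, while E2f1 was the lowest with 1.78, 2.02 and 1.72 TPM. Their median deviations of -0.13, 0.16 and -0.03 lay between those of the members and of DREAM in replicate 1. Of 13 G1 cyclins, kinases and inhibitors, 9 were detected, and 9 of the 10 tested varied, where 65.4% of all genes did. Ccnd2, a D-type cyclin, had 677, 688.4 and 425.2 TPM and its kinase Cdk4 had 248.6, 309.6 and 227.8 TPM, both lowest in replicate 3. The inhibitor Cdkn2a had 0.47, 0.2 and 0.25 TPM on 3, 1 and 1 counts, and Ccnd1, Cdkn2b and Cdkn1c were likewise not detected. No gene of these 5 lists varied beyond the dispersion of edgeR after adjustment, and 1 of the other mitosis genes and 1 of the S phase genes had an unadjusted p under 0.05.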

How the data were processed

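PolyA RNA was measured in 3 libraries of 1 group. The authors deposited, per the file headers, expected counts and TPM per gene and transcript (release M21, mouse mm10), with the percent of each gene taken by a transcript, a second table of estimated counts and TPM, and whole-number counts per gene on release M4. The sources used here do not name the programs, and no file was scaled between libraries. M4 counts were matched by gene ID (98.8%) and divided by the coding bases of M21. Symbols came from the transcript names.

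The SD is the spread between libraries that the labels call technical replicates of 1 biological replicate, so it and all p-values say nothing of other mice. Detection meant a TPM of 1 or more in each of the 3 libraries. Expected counts were rounded, and those with a mean of 10 or more were tested by chi-square (2 degrees of freedom) against the library sizes after TMM scaling, with Benjamini-Hochberg adjustment over all genes tested and a threshold of 0.05. A stricter variance added the trended dispersion of edgeR 4.0.16 (R 4.3.3). The quasi-likelihood test of edgeR has no contrast here, and DESeq2 1.42.0 gave size factors for an alternative. Deviations used a prior count of 0.5. Both count tests were run on simulated counts, at dispersions below the common dispersion of 0.0702 estimated from these libraries. How they behave at the spread of these data was thus not simulated. Intervals cover counting error only, as copies of 1 molecule cannot be told from separate molecules without identifiers.

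Values in every library are given, by rule, for the highest and lowest member of each function list, the 6 widest ratios, a set of well-known members and the subunits of 4 complexes, and for the highest pair and the lowest gene of each pathway list. The members and lists were chosen with earlier results of these data known. Promoters were from RefSeq on GRCm38.p6. Alternatives were other scalings, filters, pseudocounts, detection limits, tables and libraries left out. Protein-coding transcripts alone were an alternative chosen after seeing the data.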

Additional observations from a re-analysis of the deposited data

How the results depend on the processing

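All 57 members were detected under the 3 detection limits, in both M21 quantifications and without any 1 library, and none varied beyond the dispersion under any of the 9 alternatives run. Members varying by the chi-square test numbered 49 in the main analysis and 47 to 50 under the alternatives of scaling, filter and table, and 31 to 41 with 1 replicate left out (31, 34 and 41 without replicates 1, 2 and 3, where 51.7%, 53.6% and 32.2% of all genes varied). Fewer libraries enter those tests. Single members lost their call in 4 cases in the estimated counts table, in 2 without a filter, in 2 with total counts, in 1 with median-of-ratios size factors and in 1 with M4 counts (Spc25, Kif2c, Cenpe, Ncapg, Bub3 and Smc2). The median deviation of members in replicate 1 was -0.27 to -0.13 under all alternatives, and in replicate 3 it was 0.00 to 0.13 except without replicate 1, where it was -0.05.

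Absolute levels depended on the table. The median over members was 29.06 TPM, and 15.22 in the estimated counts table, 40.78 in M4 counts per coding base, 35.99 with TPM taken over nuclear protein-coding genes and 23.9 over protein-coding transcripts. On the log2 scale the median of all members, 4.90, became 3.99, 5.37, 5.20 and 4.63 in the same order, that of checkpoint and anaphase genes 4.07, 5.70, 5.25 and 4.38, that of kinetochore genes 3.57, 4.89, 4.65 and 4.15 and that of chromosome proteins 5.37, 5.76, 6.52 and 5.18. The cyclin group, 5.88, became 6.11 in M4 counts and 5.79 over coding transcripts, above the chromosome proteins in both. The estimated counts table gave 5.03 for cyclins, 4.27 for kinases, 3.72 for kinesins and 3.87 for spindle proteins, and M4 counts gave 5.56 for kinases and 5.21 for spindle proteins. Nuclear protein-coding TPM gave 4.98 for kinesins, and coding transcripts gave 4.38 for kinesins and 4.25 for spindle proteins. The settings differ in their denominators and in the transcripts counted, and what moved the levels was not tested. With 1 library left out the medians of each function list moved by less than the spread between libraries.

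There is no control, so no level can be tied to activation. That the libraries are technical replicates of 1 biological replicate rests on their labels alone. In replicates 1, 2 and 3, Ighg2c had 1.24, 1.59 and 334.6 TPM, Hbb-bs 288.4, 2.35 and 10.2, and Ctla4 190.2, 249.6 and 612. These marker genes, picked after their values were seen, varied beyond the dispersion of edgeR after adjustment. Of all genes tested 1.08% did so, and of the 57 members 0. Whether the libraries differ by more than technical replicates would was not tested. No paired analysis was possible because there is 1 group.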
